A study of Homo sapiens with 40 samples.

Results

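NSD2 knockout clone 3 and NSD2 knockout clone 12 are lines derived independently from KMS-11, a human multiple myeloma cell line that carries the t(4;14) translocation. Their H3K27me3 profiles were set against each other, to show how far 2 knockouts of the same gene in the same line resembled one another. The 4 libraries were chosen by the clone number in their titles, 2 libraries for clone 3 and 2 for clone 12, out of 30 H3K27me3 libraries with a peak list. Both clones carried the NSD2 knockout and were untreated; the 2 libraries of wild-type parental KMS-11, also untreated, were the line both came from. Each knockout was 1 clone, so a difference between them belongs to these clones and cannot be told apart from anything else that differed between the 2 founder cells. The labels call the libraries biological replicates without saying how they were separated, so the spread between them may be partly technical. The other 24 libraries came from a second parental KMS-11 line and 2 clones of it, 8 and 11, with a degradable NSD2, sampled after 0, 7, 14 and 21 days of the degrader dTAGV-1, and enter here only for the spread they lend to the tests and as outside values.

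H3K27me3, trimethylation of lysine 27 of histone H3, is placed by Polycomb repressive complex 2 (PRC2) and marks silenced developmental and tissue-specific genes. NSD2 dimethylates lysine 36 of the same histone, and PRC2 works poorly on histones that carry that methylation. In myeloma with t(4;14) the translocation drives NSD2 to high levels, H3K36me2 spreads over much of the genome, and H3K27me3 is displaced from there; loss of NSD2 is known to let H3K27me3 return to those regions.

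The assay was CUT&Tag, in which a transposase tethered to the antibody cuts and tags the DNA around the mark. Peak lists hold no read totals, so depth was estimated from the peaks themselves as the background pileup, the mean number of fragments over a background position, which ran from 0.922 to 3.26 over the 30 libraries. Called length, the genome inside merged peaks on chromosomes 1 to 22 and X, ran from 36.1 to 168 Mb over the 30 libraries, and clone 3 replicate 1 was the longest of them. Peak lists do not show whether NSD2 was lost: the NSD2 gene body was 0% covered in both clone 3 libraries, 0% and 0.273% in clone 12, and 0.212% and 0% in the parental line. For the plasma cell identity of the line, 2 of 10 markers, TNFRSF17, which encodes the receptor BCMA, and JCHAIN, which joins polymeric antibodies, were at 0% in all 6 libraries, and 4 of 10 were under 5% in the 4 knockout clone libraries. The mean of the 10 was 8.05% and 7.86% in clone 3, 7.20% and 6.11% in clone 12, and 5.73% and 5.20% in the parental line. SDC1 and CD38 were covered in both libraries of both clones. MZB1 was covered at 10.7% and 11.1% in clone 3, and at 10.1% and 0% in clone 12. The most covered, SLAMF7, a plasma cell surface receptor, was at 45.3% and 40.6% in clone 3, 40.1% and 35.1% in clone 12, and 26.5% and 24.3% in the parental line.

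Clone 3 had the longer H3K27me3 lists. Its libraries held 168 and 137 Mb of called length in 205920 and 147965 peaks, against 123 and 94.0 Mb in 154355 and 102182 peaks for clone 12. The parental libraries held 81.0 and 53.7 Mb. Called length averaged 152 ± 22.0 Mb in clone 3 and 108 ± 20.4 Mb in clone 12 (SD, n = 2 each), a ratio of 1.40. The groups did not overlap, and an exact permutation test, two-sided, gave p = 0.333; 2 libraries against 2 cannot go lower. Depth moved with the clones: the pileup was 2.84 and 2.60 in clone 3 and 2.46 and 2.04 in clone 12. Called length per unit of pileup was 59.0 and 52.6 Mb in clone 3, 49.9 and 46.2 Mb in clone 12 and 31.4 and 35.7 Mb in the parental line, so the ratio of the clones was 1.16 on that measure. The part of depth in the difference of called length was not tested beyond this. A fit with the pileup as a covariate was run for genes and bins only, and is given with the other settings below.

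**Figure D1:**
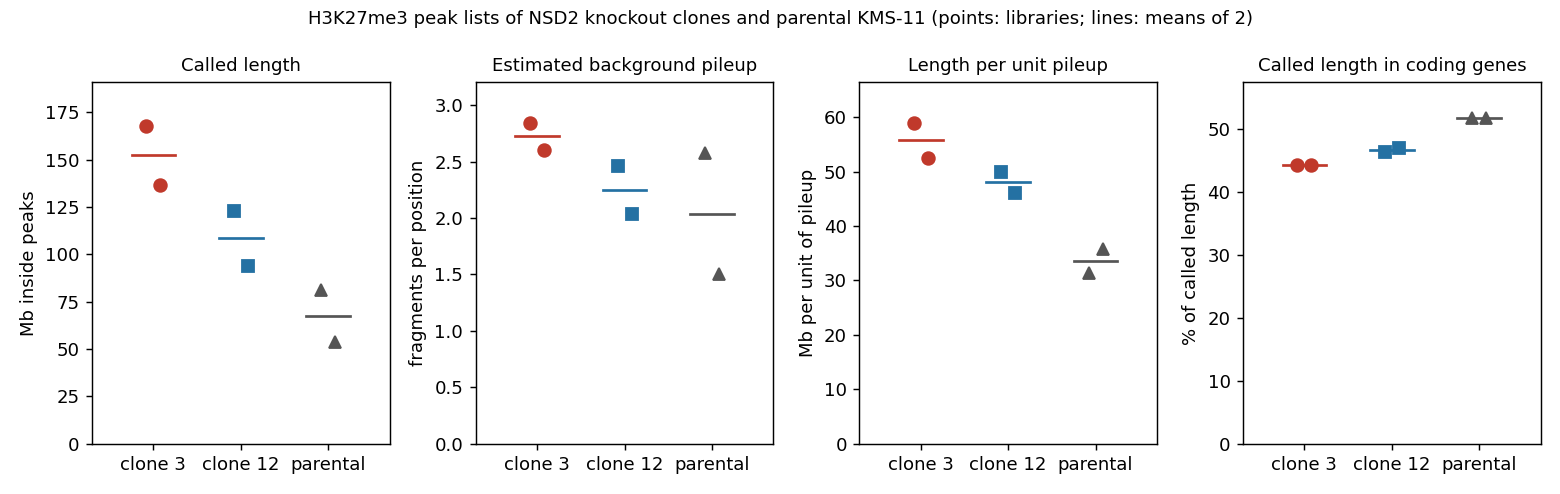
Each point is 1 library and each line the mean of 2 libraries of clone 3, clone 12 or the parental line, for called length (Mb), estimated background pileup (fragments per position), called length per unit of pileup (Mb) and share of called length in coding genes (%). Clone 3 lies above clone 12 in the first 3 panels and below it in the fourth, at 44.4% and 44.2% against 46.3% and 47.0%.

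The extra length in clone 3 lay more outside genes than inside them. Protein-coding genes held 44.4% and 44.2% of the called length in clone 3, 46.3% and 47.0% in clone 12, and 51.7% and 51.9% in the parental line. Length inside genes was 1.33 times that of clone 12 and length outside genes 1.47 times. Strong peaks, with a −log10 q of at least 5, covered 31.5 and 18.5 Mb in clone 3 and 21.2 and 13.3 Mb in clone 12. Those libraries overlapped, while the ratio of their means was 1.45, beside 1.40 for all peaks. Median peak width, 594 and 696 bp in clone 3 and 573 and 680 bp in clone 12, overlapped as well. The peak lists themselves were about as alike between clones as within one: bases shared, as a share of bases in either list, came to 37.2% within clone 3, 33.3% within clone 12 and 30.0% to 38.5% for the 4 pairs of 1 library from each clone. With every list shortened to the same length the shares were 43.9%, 41.5% and 37.9% to 45.6%.

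Promoters of a small group of genes were marked in 1 clone and not in the other. Of 15412 RefSeq promoter windows, from 250 bases before to 50 bases after a gene's start, 63.3% and 59.1% lay at least 50% inside peaks in clone 3, 60.1% and 55.1% in clone 12, and 57.0% and 46.7% in the parental line. Both clone 3 libraries and neither clone 12 library marked 231 promoters, both clone 12 and neither clone 3 library marked 64, all 4 libraries marked 7640, and none of the 4 marked 4778. The 231 and the 64 had a median CpG content, as observed over expected, of 0.672 and 0.698, between 0.861 for promoters marked in all 4 and 0.359 for those marked in none. Of the 231, 131 were unmarked in both parental libraries and 31 marked in both; of the 64, 22 were unmarked and 22 marked. These counts come from lists of unequal length and have no test. Of the 24 genes chosen below for the size of their difference, 22 had a window and 0 fell in either class, so the sequences shown are those of the 3 genes in each class with the largest scaled difference over the gene body, among the 47 and the 17 windows that were 100% inside peaks in both libraries of 1 clone and 0% in both of the other, chosen after their values were seen. MISP3 is added as a promoter that stayed inside peaks in both clones while its gene body differed. The sequences are from RefSeq, GRCh38.p14, on the strand of the gene, with each CpG in capitals. KRTAP4-11 lies at chr17:41118324-41118623 (minus strand), NAT8 at chr2:73642373-73642672 (minus), S100A9 at chr1:153357604-153357903 (plus), KRTAP10-7 at chr21:44600347-44600646 (plus), FFAR2 at chr19:35448007-35448306 (plus), PNMA5 at chrX:152992164-152992463 (minus) and MISP3 at chr19:14072536-14072835 (plus).
KRTAP4-11: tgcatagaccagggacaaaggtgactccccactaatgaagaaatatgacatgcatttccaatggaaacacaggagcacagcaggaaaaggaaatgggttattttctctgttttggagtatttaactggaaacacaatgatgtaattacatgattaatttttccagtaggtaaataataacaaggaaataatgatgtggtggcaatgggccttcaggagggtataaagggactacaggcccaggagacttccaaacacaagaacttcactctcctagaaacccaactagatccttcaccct
NAT8: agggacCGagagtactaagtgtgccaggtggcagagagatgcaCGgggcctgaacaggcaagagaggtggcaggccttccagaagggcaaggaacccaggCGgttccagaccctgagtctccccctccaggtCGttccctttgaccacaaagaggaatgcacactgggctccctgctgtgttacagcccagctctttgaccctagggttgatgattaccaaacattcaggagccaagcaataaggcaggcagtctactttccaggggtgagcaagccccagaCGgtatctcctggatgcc
S100A9: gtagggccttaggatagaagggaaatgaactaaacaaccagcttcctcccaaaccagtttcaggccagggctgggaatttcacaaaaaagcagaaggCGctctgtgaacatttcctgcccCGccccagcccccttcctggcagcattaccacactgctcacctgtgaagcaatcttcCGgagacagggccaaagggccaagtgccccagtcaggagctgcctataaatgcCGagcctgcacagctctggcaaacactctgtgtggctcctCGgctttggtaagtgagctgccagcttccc
KRTAP10-7: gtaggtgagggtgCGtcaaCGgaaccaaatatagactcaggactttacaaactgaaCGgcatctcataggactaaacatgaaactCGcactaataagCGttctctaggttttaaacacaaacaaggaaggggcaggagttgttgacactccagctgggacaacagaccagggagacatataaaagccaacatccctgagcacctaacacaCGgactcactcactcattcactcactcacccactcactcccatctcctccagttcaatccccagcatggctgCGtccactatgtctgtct
FFAR2: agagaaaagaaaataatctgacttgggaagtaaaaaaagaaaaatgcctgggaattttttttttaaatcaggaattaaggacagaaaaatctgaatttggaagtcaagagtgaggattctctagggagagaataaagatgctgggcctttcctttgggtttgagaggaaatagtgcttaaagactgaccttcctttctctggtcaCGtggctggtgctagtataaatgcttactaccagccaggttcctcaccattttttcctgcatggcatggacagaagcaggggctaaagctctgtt
PNMA5: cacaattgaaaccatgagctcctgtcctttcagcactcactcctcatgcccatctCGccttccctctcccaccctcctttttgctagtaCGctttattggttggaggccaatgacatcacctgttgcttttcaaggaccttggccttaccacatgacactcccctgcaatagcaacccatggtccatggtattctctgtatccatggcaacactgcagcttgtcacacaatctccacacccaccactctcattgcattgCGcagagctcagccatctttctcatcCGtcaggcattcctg
MISP3: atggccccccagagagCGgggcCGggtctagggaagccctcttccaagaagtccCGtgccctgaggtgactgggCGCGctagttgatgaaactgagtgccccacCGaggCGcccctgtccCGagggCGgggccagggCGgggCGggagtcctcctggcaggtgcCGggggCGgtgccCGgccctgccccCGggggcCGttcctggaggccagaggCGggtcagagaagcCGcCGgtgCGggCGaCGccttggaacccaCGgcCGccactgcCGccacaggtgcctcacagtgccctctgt

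The first 3, marked in clone 3, hold 0, 5 and 5 CpGs, the next 3, marked in clone 12, hold 7, 1 and 4, and the MISP3 promoter holds 25, against a median of 22 over all promoters. NAT8, an acetyltransferase gene of kidney and liver, had its gene body 83.1% and 82.2% covered in clone 3, 26.4% and 20.2% in clone 12, and 0% and 0.529% in the parental line. Its difference of 59.4 points passed the test on unscaled coverage (limma adjusted p = 0.00767) and not on scaled coverage (adjusted p = 0.159). S100A9, a calcium-binding protein gene of myeloid cells, was marked at its promoter in both parental libraries and both clone 3 libraries, and unmarked in both clone 12 libraries. FFAR2, a receptor for short-chain fatty acids, was 63.0% and 59.7% covered over its gene body in clone 3, with its promoter outside peaks, and 74.8% and 93.7% in clone 12, with its promoter inside. The gene bodies of S100A9 (adjusted p = 0.0588), FFAR2 (0.693), PNMA5 (0.587) and the 2 keratin-associated protein genes KRTAP4-11 (0.241) and KRTAP10-7 (0.344) did not pass the test with limma.

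Over gene bodies, more genes were covered further in clone 3 than in clone 12, and 56 of those 540 genes were still called once list length was scaled out. Coverage is the percent of a gene body inside merged peaks, and it was tested with limma over all 30 libraries in 13977 of 19451 coding genes, those with a mean coverage of 1% to 99%. At an adjusted p under 0.05, 540 genes (3.86%) were higher and 13 (0.093%) lower in clone 3. In the median gene the difference was 1.14 percentage points. After scaling each library by its called length (coverage multiplied by the mean called length of the 30 libraries over its own), 56 genes (0.401%) were higher and 6 (0.0429%) lower, and the median difference was −0.51 points. All 56 of the higher genes, and 3 of the lower ones (0.0215%), were called on both scales. A fit to the 6 knockout and parental libraries alone called 21 genes higher and 1 lower unscaled, and 0 in either direction after scaling (871 genes had an unadjusted p under 0.05 there). In the 30-library fit, groups in which a gene is at 0% add no spread, and 38 of the 56 genes were at 0% in both parental libraries and 17 at 0% in both clone 12 libraries, so that small adjusted p values below go with such zeros. Without clone 3 replicate 1 the 540 became 273, and without clone 12 replicate 2 they became 148; the 13 became 41 without clone 12 replicate 1 and 40 without clone 12 replicate 2.

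The 12 genes with the largest scaled difference above clone 12 carried no peak in the parental line. They were 1110 to 9476 bp long, while the 56 genes called on both scales had a median length of 33751 bp, against 20717 bp for all genes tested; a ranking by percent of the gene body favours short genes. Of the 56, 24 reached the mean coverage of 1% needed for the test only through the 2 clone 3 libraries, among them 7 of these 12 (H3Y2, CRYGA, ZFP42, KRTAP24-1, KRTAP26-1, OR8A1 and OR2T10). Such genes had to differ to be tested, so their values are given as a description with no p. BECN2, a testis-linked relative of the autophagy gene BECN1, at chr1:241957767-241959062, was covered at 99.1% and 71.4% in clone 3, 17.5% and 0% in clone 12, and 0% in both parental libraries. It rose by 76.5 ± 8.52 points (SE; limma adjusted p = 4.2e-05, and 2.91e-05 scaled), but with peaks joined over gaps of up to 3 kb the difference was 37.8 points and the call was lost (limma adjusted p = 0.347). TKTL2, a transketolase-like gene, had 67.5% and 54.8% in clone 3, 18.9% and 0% in clone 12, and 0% in the parental line (limma adjusted p = 2.2e-05, scaled 0.00435). RNASE1, a secreted ribonuclease of endothelium and pancreas, had 73.3% and 28.0% in clone 3 and 0% in both clone 12 and both parental libraries (limma adjusted p = 0.00461, scaled 0.00983). H3Y2, a primate histone H3 variant, had 65.0% and 32.9% in clone 3 and 0% in clone 12, in the parental line and in all 24 other libraries. ZFP42, the pluripotency-associated zinc finger gene also called REX1, had 17.3% and 17.7% in clone 3 and 0% in clone 12 and the parental line. CRYGA, a lens crystallin, had 18.2% and 17.9% in clone 3 and 0% in clone 12 and the parental line. These genes were chosen so that both clone 3 libraries lay apart from every clone 12 library, so that separation is no result. The replicates of RNASE1 and H3Y2 differed from each other by more than 30 points.

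The other 6 were 2 neighbouring keratin-associated protein genes of hair, KRTAP26-1 and KRTAP24-1 on chromosome 21, 3 olfactory receptor genes, OR8A1, OR2T10 and OR5A2, and OTOL1, which encodes an inner ear collagen-like protein. KRTAP24-1 had 31.4% and 28.4% in clone 3, and 0% in clone 12, in the parental line and in all 24 other libraries. OR8A1 had 47.7% and 21.8% in clone 3 and 0% in clone 12 and the parental line. OTOL1 had 21.3% and 44.6% in clone 3 and 0% in clone 12 and the parental line, while 8 of the 24 other libraries covered it, at up to 14.8%. Olfactory receptor and keratin-associated genes have close copies, so reads from one can be counted at another. None of the 12 genes lay in a strong peak: with peaks of −log10 q of at least 5, all 12 were at 0% in all 6 libraries. In the fit to the 6 knockout and parental libraries, 3 of the 12, KRTAP24-1, CRYGA and ZFP42, were called and the other 9 were not, with an adjusted p of 0.283 the highest; the 3 are among those tested only through clone 3. With scaling none of the 12 did (0.0862 to 0.699). With all 30 libraries less any 1 of the 4 knockout clone libraries, all 12 differences kept their direction. They could not have turned, since the 12 were chosen with both clone 3 libraries above both clone 12 libraries on either scale. The BECN2 difference ran from 62.6 to 90.3 points unscaled and 38.2 to 51.4 scaled. For OR5A2 it ran from 10.4 to 25.7 points unscaled and 7.01 to 14.1 scaled. The scaled calls of TKTL2, RNASE1, OTOL1, OR8A1 and OR5A2 did not hold in every one of these fits. The kept direction is therefore no support for any of the 12. Those tested only through clone 3 also passed the same filter in these fits.

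**Figure D2:**
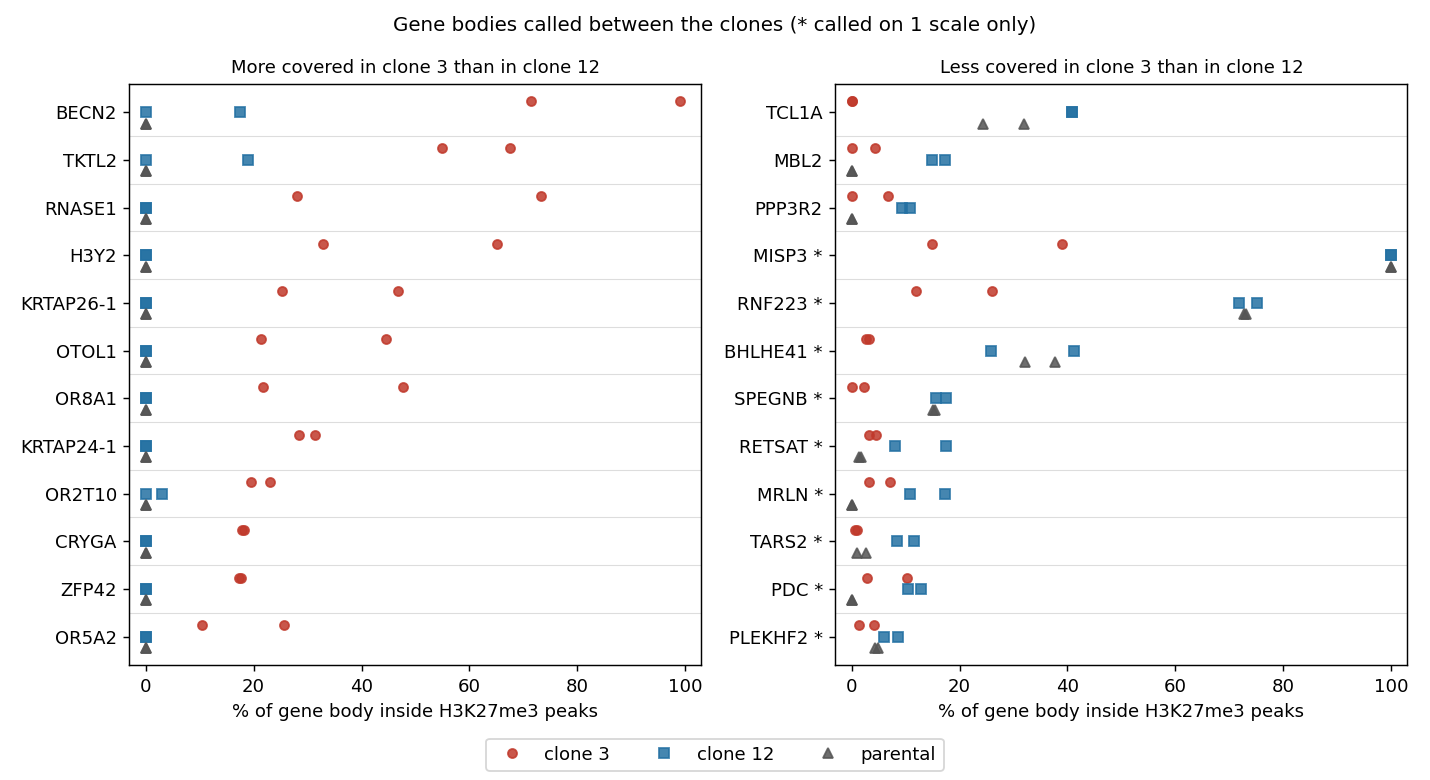
Coverage of the gene body (%) in the 2 libraries of clone 3 (circles), clone 12 (squares) and the parental line (triangles), for the 12 genes with the largest scaled difference above clone 12 (left) and the 12 below it (right, in the order in which they were chosen). On the left nearly all clone 12 and parental points lie at 0%; on the right MISP3, RNF223, BHLHE41 and SPEGNB lie near the parental level in clone 12 and below it in clone 3.

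A group of 3 genes was lower in clone 3 on both scales. TCL1A, a B cell oncogene that activates AKT and is silent in plasma cells, at chr14:95709947-95714125, was at 0% in both clone 3 libraries, 40.8% in both clone 12 libraries, and 32.0% and 24.3% in the parental libraries. It was 40.8 ± 7.61 points lower in clone 3 (SE; limma adjusted p = 0.00482, scaled 0.0172). Its coverage was entirely in weak peaks, at 0% in all 6 libraries once −log10 q had to reach 5, and 8 of the 24 other libraries covered it, at up to 41.2%. Its scaled call was lost without either clone 3 library and without clone 12 replicate 2 (limma adjusted p of 0.0935, 0.109 and 0.257). MBL2, a liver lectin that binds microbial sugars, had 4.31% and 0% in clone 3, 17.3% and 14.9% in clone 12, and 0% in the parental line. PPP3R2, a testis subunit of calcineurin, had 6.68% and 0% in clone 3, 10.8% and 9.24% in clone 12, and 0% in the parental line. MBL2 and PPP3R2 reached the coverage needed for the test only through clone 12, and are given as a description. PPP3R2 lost its call without clone 3 replicate 2, without clone 12 replicate 1 and without clone 12 replicate 2 (adjusted p 0.115 to 0.292 with limma). With peaks joined over gaps of up to 3 kb, TCL1A and PPP3R2 lost their calls (limma adjusted p of 0.141 and 0.967). None of the 3 kept its call in the fit to the 6 libraries (0.0822 to 0.356).

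To reach 12, 9 genes called on 1 scale only were added. Of these 9, MISP3, RNF223, BHLHE41 and SPEGNB were covered in the parental line and clone 12 at like levels and much less in clone 3. MISP3, a little-studied gene at chr19:14072786-14075062, was 14.8% and 39.0% covered in clone 3 and 100% covered in both clone 12 and both parental libraries (limma adjusted p = 0.00367); its lowest value in the 24 other libraries was 48.9%. RNF223, a RING finger gene at chr1:1070967-1074306, had 26.0% and 11.9% in clone 3, 71.7% and 75.2% in clone 12, and 73.1% and 72.7% in the parental line (limma adjusted p = 0.000874). RNF223 differed in strong peaks too, with 12.3% and 11.9% in clone 3, 71.7% and 75.2% in clone 12, and 73.1% and 72.7% in the parental line, though that difference did not pass the limma test (adjusted p = 0.439). SPEGNB, a neighbour of the striated muscle kinase gene SPEG, had 0% and 2.23% in clone 3, 15.7% and 17.5% in clone 12, and 15.0% and 15.5% in the parental line (limma adjusted p = 0.0485). BHLHE41, a transcription factor of the circadian clock and of B cells, had 3.29% and 2.58% in clone 3, 25.9% and 41.1% in clone 12, and 32.2% and 37.6% in the parental line (limma adjusted p = 0.0306). In the 24 other libraries BHLHE41 had a median of 2.39% and a highest value of 36.9%, so the low level of clone 3 was common there.

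The promoters of MISP3, RNF223 and BHLHE41 stayed inside peaks in all 6 libraries, at 60.7% of the window or more, so the lower coverage lay over the gene body. After scaling the differences of MISP3, RNF223, BHLHE41 and SPEGNB were −69.5, −52.7, −28.2 and −13.8 points, with limma adjusted p values of 1, 0.740, 0.642 and 0.289. MISP3 also missed the test without clone 3 replicate 1 (limma adjusted p = 0.0581), and BHLHE41 and SPEGNB missed it under 3 and 4 of the 4 left-out libraries. The remaining 5 were RETSAT, a retinol saturase gene, TARS2, a mitochondrial threonine-tRNA ligase gene, and PLEKHF2, an endosome gene, called unscaled only, and MRLN, a muscle micropeptide gene, and PDC, a photoreceptor gene, called scaled only. Among these TARS2 had 0.704% and 1.02% in clone 3, 8.44% and 11.6% in clone 12, and 2.73% and 0.912% in the parental line (limma adjusted p = 0.00176).

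Genes at the t(4;14) breakpoint and of myeloma translocations did not pass the test. FGFR3, the receptor kinase gene next to NSD2, had 36.4% and 18.8% in clone 3, 30.8% and 34.2% in clone 12, and 31.6% and 13.6% in the parental line (limma adjusted p = 0.988). MAF, a transcription factor activated by another myeloma translocation, had 9.31% and 8.14% in clone 3, 6.76% and 4.57% in clone 12, and 1.99% and 2.58% in the parental line (limma adjusted p = 0.139). CCND2, a cyclin gene, was under 2% in all 6 libraries and, like NSD2, below the coverage needed for the test.

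HOX and developmental transcription factor genes, which Polycomb keeps silent in many cells, had no calls between the clones. Over all genes tested 3.86% were higher unscaled and 0.401% scaled, so 0 calls in a list of this size is near the background on the scaled values. Of 35 HOX genes tested of 39, 0 were called in either direction on either scale with limma (1 had an unadjusted p under 0.05 unscaled and 2 scaled; 18 were above and 15 below clone 12 unscaled), and their mean coverage over the 39 was 26.0% and 20.2% in clone 3, 25.5% and 19.5% in clone 12, and 28.0% and 21.3% in the parental line. Of 135 developmental transcription factor genes tested of 165, 0 were called (8 had an unadjusted p under 0.05 unscaled and 5 scaled), with a mean over the 165 of 17.7% and 14.4% in clone 3, 16.6% and 12.9% in clone 12, and 17.8% and 11.3% in the parental line. Their scaled differences had medians of −3.48 (HOX) and −2.45 points (developmental factors), beside −0.51 over all genes tested. Polycomb subunits and demethylases of lysine 27 (25 tested), plasma cell identity genes (14), MHC class II genes (12), potassium channels (72), secreted Wnt antagonists (11), imprinted genes (20), cell cycle inhibitors (8), myeloma translocation and driver genes (13), lysine 36 methyltransferases and demethylases (6) and clustered protocadherins (3) also had 0 genes called with limma; each had 0 to 7 genes at an unadjusted p under 0.05.

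Olfactory receptor genes had 9 of 89 tested (10.1%, beside 3.86% of all genes) higher unscaled, and 3 on both scales; OR51E1, a receptor gene also active outside the nose, had 11.4% and 11.4% in clone 3, 3.53% and 3.29% in clone 12, and 0% in the parental line. Coding genes over 500 kb had 30 of 115 tested (26.1%) higher unscaled and 4 on both scales, GALNT17, CALN1, PPFIA2 and ATP8A2. PPFIA2, a synaptic scaffold gene, had 8.29% and 8.95% in clone 3, 3.52% and 2.89% in clone 12, and 0.246% and 0.223% in the parental line, and reached the test only through clone 3. CALN1, a neuronal calcium-sensor-like gene, had 10.4% and 6.74% in clone 3, 2.49% and 1.24% in clone 12, and 0.397% and 0.451% in the parental line (limma adjusted p = 0.00902, scaled 0.00419). Keratin and keratin-associated genes had 3 of 85 (3.53%) higher, and 2 on both scales. Those 2, KRTAP24-1 and KRTAP26-1, reached the test only through clone 3. Of the 3 olfactory receptor genes called on both scales, OR8A1 and OR2T10 also reached it only through clone 3.

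Beside the 3.86% of all genes that were higher unscaled, the cell type lists and smaller families had few calls each, and none of the shares was tested. T cell and NK cell genes had 2 of 23 higher unscaled and 0 scaled, with CD8B, a coreceptor chain of killer T cells, at 9.95% and 5.49% in clone 3, 2.47% and 2.02% in clone 12, and 0% in the parental line (limma adjusted p = 0.00563, scaled 0.111). Monocyte genes had 2 of 18 higher, with CEBPE, a granulocyte transcription factor, at 78.6% and 70.3% in clone 3, 38.7% and 0% in clone 12, and 20.9% and 0% in the parental line (limma adjusted p = 0.0415, scaled 0.95). Stromal, endothelial and epithelial markers had 2 of 15 higher, EPCAM and KDR. B cell identity genes had 0 of 23 higher and 1 lower, TCL1A. Cadherins had 3 of 19 higher (CDH20, CDH7 and CDH26), glutamate and GABA receptor genes 2 of 22 (GRM8 and GRIN2A), and myeloma adhesion genes 1 of 15, the integrin gene ITGA8, with 10.8% and 9.94% in clone 3, 5.38% and 4.27% in clone 12, and 0.628% and 0.674% in the parental line (limma adjusted p = 6.01e-05, scaled 0.165). Collagens, chromosome 19 zinc finger genes and cancer-testis genes had 1 each (COL8A1, ZNF234 and GAGE10, which has near-identical copies). None of the genes in these cell type, cadherin, receptor, adhesion and collagen lists other than TCL1A was called on the scaled values.

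Sorted by their coverage in the parental line, 25-kb bins showed where the extra length of clone 3 lay. Of 48604 autosomal bins tested of 114924, 4020 (8.27%) were higher and 73 (0.15%) lower in clone 3, and 534 (1.1%) and 63 (0.13%) after scaling. On both scales 534 (1.1%) were higher and 39 (0.0802%) lower. In bins with no peak in either parental library, mean coverage was 9.62% and 7.74% in clone 3 and 5.73% and 3.85% in clone 12, and 3142 of 18982 (16.6%) were called higher. After scaling the means were 5.30% and 5.23% in clone 3 and 4.31% and 3.79% in clone 12. Of the 534 bins called higher, 505 were of this class, which made up 18982 of the 48604 bins tested. Groups at 0% add no spread in this fit, which eases calls in such bins. How many of these bins reached the test only through clone 3 was not counted. In bins at 10% to 50% in the parental line the order turned with the scale. Unscaled means there were 23.3% and 19.3% in clone 3, 21.3% and 17.6% in clone 12 and 24.3% and 16.3% in the parental line, which overlap. Scaled means were 12.8% and 13.0% in clone 3, 16.0% and 17.2% in clone 12, and 27.7% and 28.0% in the parental line. These bins held 31.7% and 32.2% of the autosomal called length in clone 3, 39.6% and 42.6% in clone 12, and 68.2% and 68.8% in the parental line. The bins were grouped by these same parental libraries, so the high parental values follow in part from the grouping. The fit to the 6 knockout and parental libraries called 0 bins in either direction on either scale, with 9461 bins at an unadjusted p under 0.05 unscaled and 5429 scaled.

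**Figure D3:**
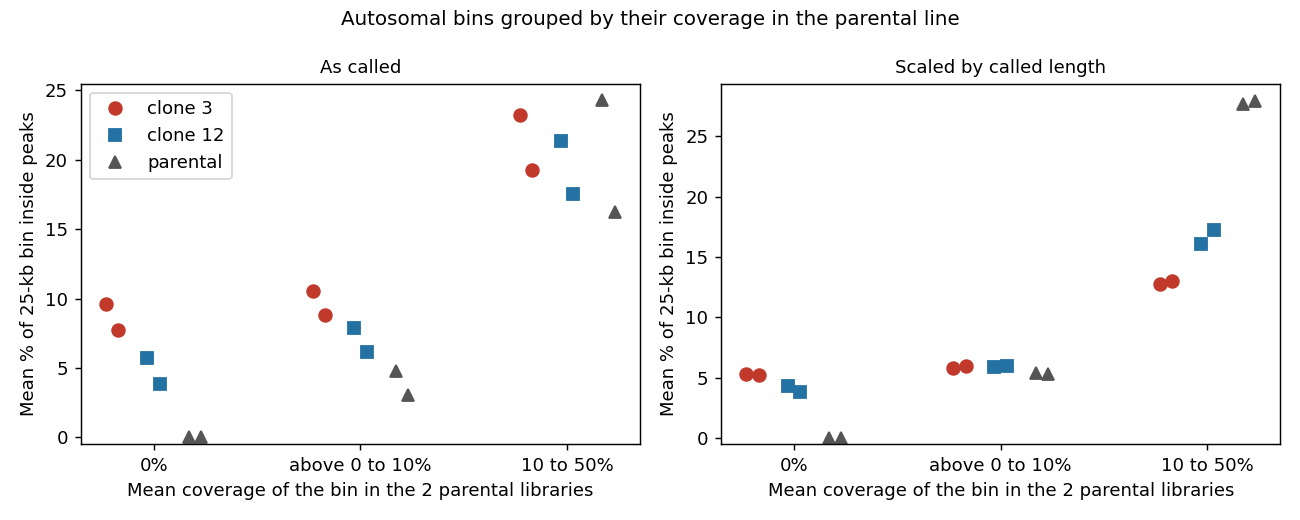
Mean coverage (%) of 25-kb autosomal bins in each library of clone 3 (circles), clone 12 (squares) and the parental line (triangles), with bins grouped by their mean parental coverage, as called (left) and scaled by called length (right). On the right clone 3 lies above clone 12 in bins at 0% and below it in bins at 10 to 50%. The parental line lies at 0% in the first group and highest in the third, which follows at least in part from the grouping.

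Bins without a coding gene were called higher more often (11.6% of 18544) than bins partly inside genes (3.77% of 16901), with 9.32% of 13159 bins wholly inside genes. In genes that were at least 50% covered in the parental line, 400 in all, coverage averaged 64.9% and 58.5% in clone 3, 64.5% and 57.7% in clone 12, and 75.3% and 61.0% in the parental line, and 0 were higher and 2 lower in clone 3. The scattered calls rarely joined: of the runs of bins called higher on both scales, 487 were 1 bin, 19 were 2 bins and 3 were 3 bins. Among those of 3 bins, 1 lay at chr4:188400001-188475000, whose nearest coding gene is TRIML1, and 1 at chr13:32950001-33025000, over KL, which encodes the hormone coreceptor klotho. The run on chromosome 4 was covered at 12.1% and 15.6% in clone 3, 1.98% and 0% in clone 12, and 0% in the parental line. The longest runs called lower were 2 bins, at chr1:34025001-34075000 inside CSMD2 and at chr5:67600001-67650000, nearest to CD180, a receptor gene of B cells. The CSMD2 run was covered at 6.26% and 1.99% in clone 3, 10.3% and 18.5% in clone 12, and 14.5% and 8.05% in the parental line. The CD180 run was covered at 3.03% and 2.36% in clone 3, 7.89% and 10.5% in clone 12, and 0% in the parental line.

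The clones divided their called length differently among chromosomes. The share of the autosomal called length was lower in both clone 3 libraries than in both clone 12 libraries on 10 chromosomes, higher on 9, and overlapped on 3. Chromosome 19 held 3.64% and 3.67% in clone 3, 4.53% and 4.96% in clone 12, and 8.27% and 8.31% in the parental line, a ratio of 0.77 between the clones. Chromosome 22, at a ratio of 0.818, held 2.46% and 2.41% in clone 3, 2.90% and 3.04% in clone 12, and 4.78% and 4.56% in the parental line. On chromosome 9 clone 3 was again below the parental line, while clone 12 was close to it. That chromosome held 4.16% and 4.12% in clone 3, 5.08% and 5.14% in clone 12, and 5.14% and 5.19% in the parental line, a ratio of 0.811 between the clones. Clones 8 and 11 of the other line had mean shares there of 4.91% and 4.84% on day 0, and 4.37% and 4.27% on day 21. Chromosomes 13 and 18 had the highest ratios, 1.17 and 1.16; chromosome 18 held 2.96% and 2.89% in clone 3, 2.64% and 2.39% in clone 12, and 1.11% and 1.08% in the parental line.

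**Figure D4:**
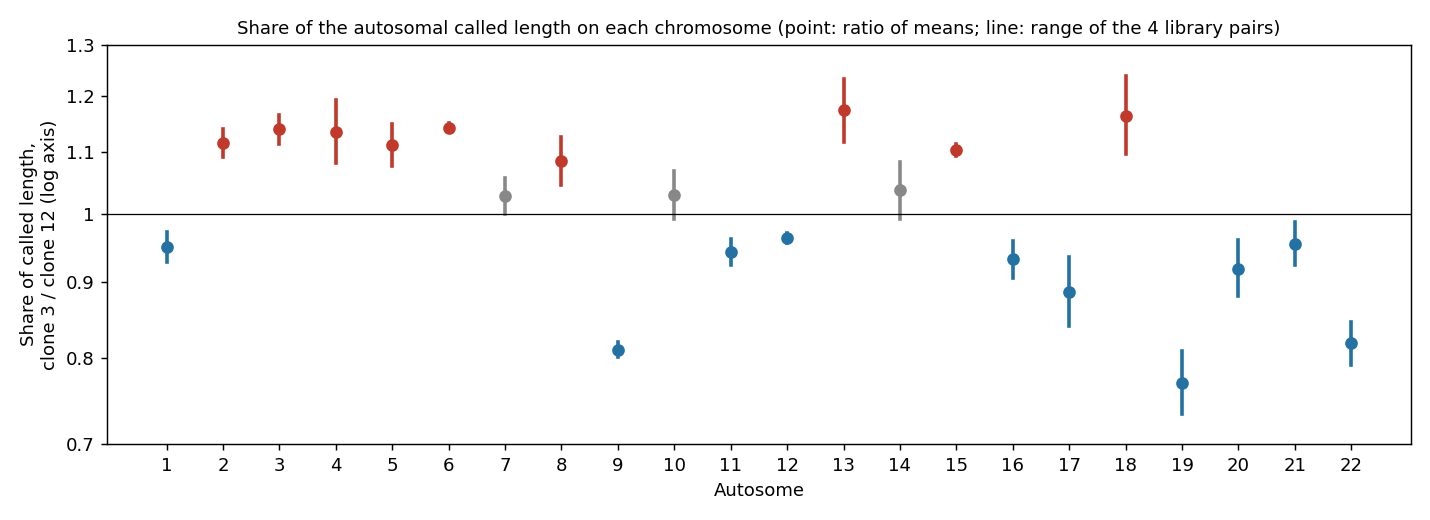
Share of the autosomal called length on each chromosome in clone 3 divided by that in clone 12 (log axis); points are ratios of the means of 2 libraries and lines span the 4 pairs of 1 library from each clone. Chromosomes 19, 9 and 22 lie lowest, at 0.77, 0.811 and 0.818, and chromosomes 13 and 18 highest, at 1.17 and 1.16.

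A finer division in 2-Mb windows showed long stretches of chromosomes 9, 11 and 12 in which the share of clone 3 was lower than that of clone 12. The stretch on chromosome 9 held 2.21% and 2.15% in clone 3, 2.69% and 2.57% in clone 12, and 1.76% and 1.76% in the parental line, so it accounts for only a part of the gap between the clones on that chromosome. Both clones were above the parental line there. The 12 libraries of treated dTAG clones held 2.09% to 2.39%, a range that takes in both clone 3 values and lies below both clone 12 values. The 8 libraries of the dTAG parental line held 1.54% to 1.69%. For this description, chosen after the values were seen and given with no test, the ratio of the clones in each of 1232 windows was set against that of windows with a like share in the parental line. Windows from 32 to 126 Mb of chromosome 9 (34 windows) had a median ratio of 0.732 of that level, those from 124 Mb of chromosome 11 to its end (6 windows) 0.408, and those from 0 to 36 Mb of chromosome 12 (16 windows), 0.673. Every one of these windows was below its level. That follows at least in part from the choice, since the stretches were picked as runs of windows apart from that level. The chromosome 12 stretch held 0.791% and 0.813% of the called length in clone 3, 1.08% and 1.08% in clone 12, and 1.13% and 1.17% in the parental line, and 0.706% to 0.831% over the 24 libraries of the other parental line and its clones. The chromosome 11 stretch held 0.187% and 0.162% in clone 3, 0.301% and 0.332% in clone 12, and 0.296% and 0.258% in the parental line. Across the 8 libraries of the dTAG parental line the chromosome 11 stretch held 0.147% to 0.253%, and across the 12 libraries of treated dTAG clones 0.299% to 0.364%; the clone 3 values lie within the first range and below the second. All 3 lower stretches stayed apart in strong peaks, which are a part of the peaks used to pick them and so no separate support. With −log10 q of at least 5, the chromosome 12 stretch held 0.668% and 0.794% in clone 3 and 0.962% and 0.963% in clone 12. The parental line held 1.09% and 0.953% there. The chromosome 11 stretch held 0.119% and 0.126% in clone 3, 0.203% and 0.173% in clone 12, and 0.213% and 0.193% in the parental line. BHLHE41 lies in the chromosome 12 stretch and PPP3R2 in the chromosome 9 stretch, while OR8A1, higher in clone 3, lies in the chromosome 11 stretch.

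Another 3 stretches, of 12 Mb each, were higher in clone 3, at 154 to 166 Mb of chromosome 6, 8 to 20 Mb of chromosome 9 and 24 to 36 Mb of chromosome 13. The chromosome 13 stretch, which contains KL, held 0.277% and 0.266% in clone 3, 0.179% and 0.181% in clone 12, and 0.146% and 0.154% in the parental line. These 3 did not stay apart in strong peaks, where the ratios of clone 3 over clone 12 were 1.07 on chromosome 6, 0.97 on chromosome 9 and 1.31 on chromosome 13, with overlapping libraries on each. A change in the number of copies of a chromosome stretch and a change in the mark cannot be told apart in peak lists.

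**Figure D5:**
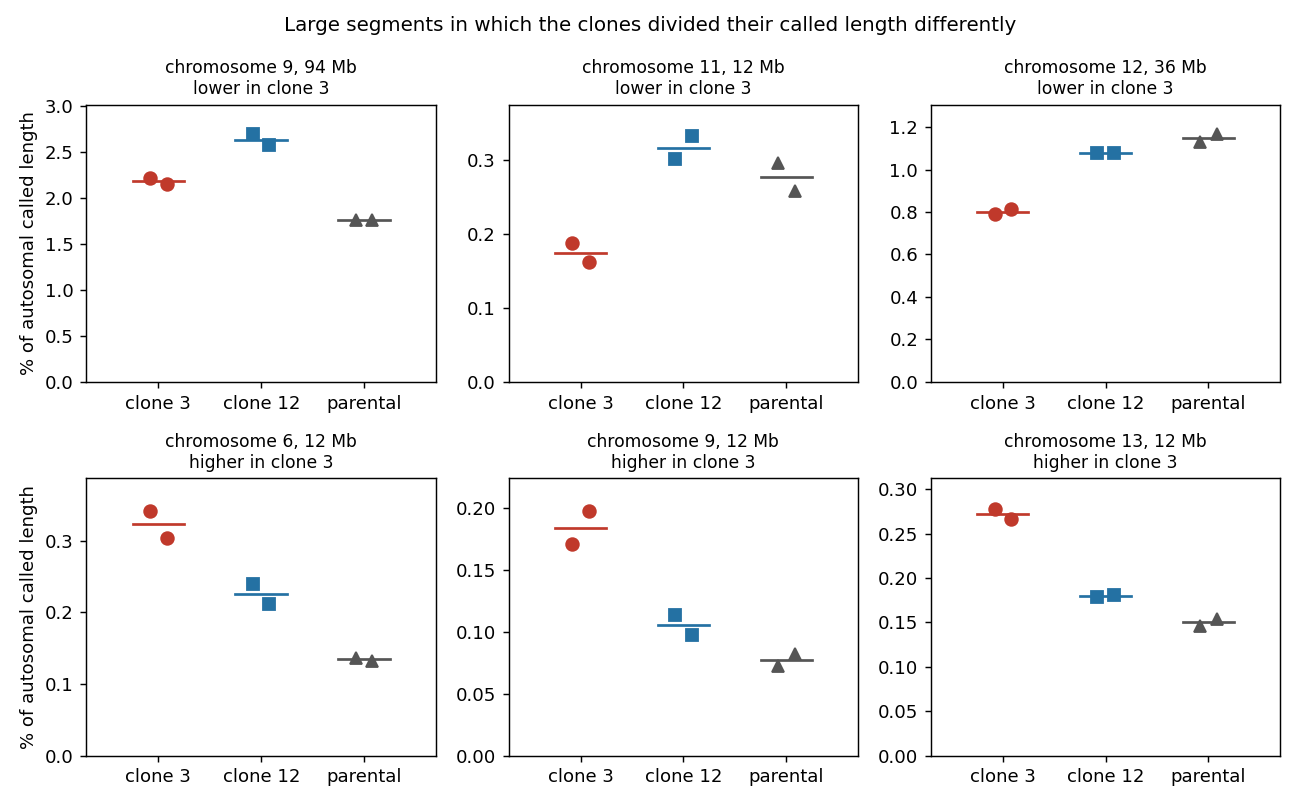
Share of the autosomal called length (%) in the 6 long stretches, with 1 point for each library of clone 3, clone 12 and the parental line and lines at the means of 2. In the top row clone 3 lies below clone 12, by ratios of 0.829, 0.551 and 0.744 on chromosomes 9, 11 and 12; in the bottom row it lies above.

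Set against the parental libraries, which both comparisons share, clone 3 had 3055 genes (21.9%) higher and 94 (0.673%) lower, and clone 12 had 624 (4.46%) higher and 27 (0.193%) lower. After scaling the counts were 1567 (11.2%) higher and 1764 (12.6%) lower for clone 3, and 945 (6.76%) higher and 692 (4.95%) lower for clone 12. The 2 degron clones, 8 and 11, gave a comparison of 2 clones of 1 line under the same test. With limma, clone 8 differed from clone 11 in 0 genes in either direction before treatment (221 had an unadjusted p under 0.05), and after scaling in 6 genes higher (0.0429%) and 5 lower (0.0358%). After 21 days of dTAGV-1 it had 13 genes higher (0.093%) and 3 lower (0.0215%), and after scaling 4 higher (0.0286%) and 2 lower (0.0143%). That the knockout clones differed in more genes than the degron clones is a statement about counts, and the difference between the 2 pairs was not itself tested.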

How the data were processed

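The data were CUT&Tag H3K27me3 peak lists of 30 libraries in 15 groups of 2, of which the 4 of NSD2 knockout clones 3 and 12 and the 2 of their parental line are described. Libraries were grouped by their titles. Per the labels' protocols, 50000 nuclei were used and libraries were amplified over 13 PCR cycles. Tools named by the submitters' processing notes, without their order or settings, include MACS3 3.0.2, fastp 0.24.0, Bowtie2 and deepTools 3.5.1, on build hg38. The authors deposited 1 broad peak list for each library, with a score for each peak that, tested on the values, was its −log10 q multiplied by 10 and cut to a whole number. Each deposited peak also carries a fold enrichment, the ratio of its signal to the background, and a −log10 p and −log10 q; these are the authors' values and were used only to filter peaks or estimate depth within a list. Caller settings and read totals were not given in the sources used.

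Peaks were merged within a library, and coverage was the percent of each coding gene body (RefSeq GRCh38.p14, 1 kb or longer, chromosomes 1 to 22 and X) or 25-kb autosomal bin inside them. Background pileup was solved from the fold and the p of the shortest 2% of peaks. Coverage, not a count, was tested with limma 3.58.1 (R 4.3.3) over all 30 libraries with 15 residual degrees of freedom, for features with a mean coverage of 1% to 99%, with Benjamini-Hochberg adjustment over all features tested and a threshold of 0.05. Scaled coverage was coverage multiplied by the mean called length of the 30 libraries over that library's own. The steps were tested on simulated data. Python 3.11.15 with numpy 2.4.6, pandas 2.3.3, scipy 1.17.1 and matplotlib 3.10.9 did the rest.

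Genes named were the 12 with the largest scaled difference in each direction among those called on both scales whose clones did not overlap, filled up with genes called on 1 scale, besides NSD2, FGFR3, MAF and CCND2, called list members and the longest runs of called bins. A few further list members, called unscaled only, and the promoter genes were named after their values were seen. The members and lists were chosen with earlier results of these data known. Alternatives were other peak thresholds, lists of equal length, joined peaks, a depth covariate, a fit to 6 libraries, no filter, an arcsine transform, a replicate block and leaving out each library. The 10 libraries without a peak list (IgG, H3K27ac and H3K4me3) were not used here. 1 of the longest runs of bins is not reported here.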

Additional observations from a re-analysis of the deposited data

Results flagged for a closer look

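TCL1A stood apart because, on unscaled coverage, the clones lay on opposite sides of the line they came from. It was covered at 0% in both clone 3 libraries and 40.8% in both clone 12 libraries, a difference of −40.8 points, with the parental libraries at 32.0% and 24.3%. After scaling by called length this did not hold: clone 3 was at 0%, clone 12 at 30.7% and 40.1% and the parental line at 36.5% and 41.8%, so clone 12 and the parental line overlapped. The opposite movement was not itself tested, and both movements share the parental libraries.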

How the results depend on the processing

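With the pileup as a covariate the median difference over the genes tested was 0.313 points, against 1.14 without it. The count of genes higher in clone 3 was 540 with limma over 30 libraries and 489 with that covariate. It was 56 scaled by called length, 28 with lists of equal length, 3 with a −log10 q of at least 5, 0 with a fold of at least 4 (204 genes at an unadjusted p under 0.05), 21 with the 6 knockout and parental libraries only and 0 with those scaled, 947 with no filter on low values and 93 on the arcsine scale. Genes lower, 13 as reported, were 6 scaled, 0 with the −log10 q limit (308 at an unadjusted p under 0.05), 1 with the fold limit, 55 with the pileup covariate, 1 with the 6 libraries and 0 with those scaled, 32 with no filter and 7 on the arcsine scale. Bins higher, 4020 as reported, were 534 scaled, 3336 with the pileup covariate and 32 with equal length. They were 10 with the −log10 q limit, 1 with the fold limit and 0 with the 6 libraries on either scale. No filter gave 8525 and the arcsine scale 1051. Bins lower, 73 as reported, were 14 with equal length, 0 with the −log10 q limit (723 at an unadjusted p under 0.05) or the fold limit (496), 267 with the pileup covariate, 0 with the 6 libraries on either scale, 424 with no filter and 18 on the arcsine scale. Fewer features passed the filter with stricter peaks; other causes were not tested.

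Leaving out 1 library gave 148 to 768 genes higher (26 to 71 scaled), 9 to 41 lower (4 to 36 scaled), 1245 to 4941 bins higher (196 to 782 scaled) and 42 to 153 lower (20 to 339 scaled). Scaled counts between those bounds included 58 genes higher and 366 bins higher without clone 3 replicate 2, and 735 bins higher without clone 12 replicate 1. Scaled leave-one-out fits and the scaled fit to 6 libraries were chosen after seeing the data. Called length was 1.40 times that of clone 12, 1.24 to 1.62 with 1 library left out, 1.16 per unit of pileup, and 1.00 with equal lists, by construction. The share of called length in genes, −2.38 points, was −1.26 with equal lists, −1.93 with the −log10 q limit and −0.953 with the fold limit. The direction turned for MISP3 (19.5 with the −log10 q limit), SPEGNB (1.11 with the fold limit) and PDC (0.598 with joined peaks); the cause was not tested.

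Libraries share only a replicate number. Replicate differences of the clones correlated at 0.165 over genes and 0.134 over bins (0.141 and 0.0707 scaled). A replicate block gave 844 genes higher and 24 lower (63 and 7 scaled), 115 bins lower, and 584 bins higher when scaled. It kept the calls of all 15 genes called on both scales and named. Those of the 15 tested only through 1 clone had to differ to be tested, so their kept calls are no support. Of those 15, joined peaks lost BECN2 (limma adjusted p = 0.347), TCL1A (0.141) and PPP3R2 (0.967), and the arcsine scale lost OR2T10 (0.0605) and PPP3R2 (0.229). Read totals are unknown, so depth limits every count through the lists.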
